A study of Mus musculus with 16 samples.

Results

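The transcripts described are those of the T cell receptor (TCR) constant genes Trac, Trbc1, Trbc2 and Trdc and of the CD3 genes Cd3d, Cd3g and Cd3e in sorted natural killer (NK) cells of the mouse. They were taken by gene symbol from the authors' table of read counts, which gave 7 genes of 49671, each with 1 row and each passing the filter on low counts. The mice had the genotype Cdh1F/F;Trp53F/F;Foxp3GFP-DTR on an FVB/N background and carried a KEP mammary tumour of 100 mm2 that had been transplanted into the mammary gland. In these mice the diphtheria toxin (DT) receptor is expressed with GFP from the Foxp3 gene, so that DT removes Foxp3-expressing regulatory T cells. All 4 groups share this genotype and tumour, so none is a tumour-free or receptor-free control. The groups were lung NK cells of mice given DT (lung DT), lung NK cells of mice given PBS (lung PBS), NK cells of the axillary tumour-draining lymph node (LN) of mice given DT (LN DT) and the same of mice given PBS (LN PBS), with 4 libraries each. DT was given at 25 ug at T = 0 and T = 7, and PBS at the same times, with no unit of time in the labels. For each library, 5K to 10K live CD45+ CD3- NKp46+ DX5+ cells were sorted, so surface CD3 was part of the gate while CD3 and TCR transcripts were not. The series describes 4 biological replicates per group, without saying whether the LN and lung libraries came from the same mice.

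On T cells, a rearranged alpha and beta chain, or gamma and delta chain, is carried to the surface by CD3 gamma, delta, epsilon and zeta chains, and ZAP70 and LCK relay its signal. Each receptor chain is made by joining V, in some loci D, and J segments to a constant (C) gene, which takes the RAG recombinase. Constant and J segments can also be transcribed from unrearranged loci as sterile germline RNA, and NK cells are known to contain CD3 chain transcripts and germline TCR transcripts without a surface receptor. CD3 zeta (Cd247) is the exception among the chains, since NK cells use it with Fc receptors and NKp46.

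The beta constant genes are shown first because their counts can be told apart only where they differ. In GENCODE M21 (GRCm38), Trbc1 lies at chr6:41538218-41539881 and Trbc2 at chr6:41546730-41548352, both on the plus strand and 6848 bases apart. Over 521 coding bases with the stop codon the transcripts differed at 23, an identity of 95.6%. The first exon of 375 bases held 1 of these differences, and the coding parts of the later exons, 146 bases, held 22. The longest identical run was 259 bases. These later exons are printed with differing bases in capitals.
Trbc1: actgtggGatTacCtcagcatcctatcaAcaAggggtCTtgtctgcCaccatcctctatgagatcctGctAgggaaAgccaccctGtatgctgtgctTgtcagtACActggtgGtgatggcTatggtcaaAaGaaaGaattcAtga
Trbc2: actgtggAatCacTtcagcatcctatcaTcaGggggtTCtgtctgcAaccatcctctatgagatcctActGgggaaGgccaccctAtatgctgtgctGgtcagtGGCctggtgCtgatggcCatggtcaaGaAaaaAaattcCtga
How reads that fit both genes were treated is not given in the sources used here, so the split between Trbc1 and Trbc2 is uncertain. Their counts are those of 2 neighbouring genes and not of 2 receptors.

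The CD3 genes lie together on chromosome 9. Cd3g (chr9:44969572-44980431, minus strand) and Cd3d (chr9:44981786-44987339, plus strand) start 1354 bases apart and point away from each other, and Cd3e (chr9:44998740-45009627, minus strand) lies 11400 bases past the end of Cd3d. The 250 bases before each start, from RefSeq's promoter table for GRCm38.p6, are shown because Cd3d and Cd3g were the members that differed most clearly between the tissues. The windows are chr9:44981536-44981785 on the plus strand for Cd3d, and chr9:44980432-44980681 for Cd3g and chr9:45009612-45009861 for Cd3e on the minus strand. Capitals mark matches, on either strand, to CANNTG, the E box that E proteins such as E2A and HEB bind, and CTTTGA, a core of TCF/LEF sites.
Cd3d: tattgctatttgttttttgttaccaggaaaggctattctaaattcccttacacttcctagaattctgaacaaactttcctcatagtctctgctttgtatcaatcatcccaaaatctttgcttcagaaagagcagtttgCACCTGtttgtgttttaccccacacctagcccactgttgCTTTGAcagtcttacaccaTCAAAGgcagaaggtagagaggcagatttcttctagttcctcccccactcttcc
Cd3g: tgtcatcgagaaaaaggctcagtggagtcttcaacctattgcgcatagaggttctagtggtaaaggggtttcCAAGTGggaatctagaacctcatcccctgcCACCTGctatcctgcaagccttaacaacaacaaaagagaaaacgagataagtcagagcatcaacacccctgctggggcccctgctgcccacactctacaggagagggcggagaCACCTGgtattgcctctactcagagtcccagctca
Cd3e: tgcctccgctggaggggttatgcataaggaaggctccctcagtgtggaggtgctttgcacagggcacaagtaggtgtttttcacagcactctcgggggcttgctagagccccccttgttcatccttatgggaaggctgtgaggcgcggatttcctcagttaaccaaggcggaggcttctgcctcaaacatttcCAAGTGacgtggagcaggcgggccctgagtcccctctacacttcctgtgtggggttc
Cd3d held 1 E box and 2 CTTTGA matches, Cd3g held 3 E boxes, and Cd3e held 1 E box. Of all 32851 promoter windows of the same length, an E box stood in 66.2% and the CTTTGA core in 13.8%. The RUNX core TGTGGT was in none of these 3 windows and in 14% of all windows. The T-box core TCACAC was also in none of the 3, and in 12.3% of all. The matches are descriptions of letters and not of bound sites. The table has no promoter for Trac, Trbc1, Trbc2 or Trdc.

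Total counts per library lay between 3929560 and 10744934. Values are CPM, each library's counts scaled to a common total with library sizes adjusted by TMM, and a gene is called where edgeR's quasi-likelihood test gave a Benjamini-Hochberg adjusted p under 0.05 over 13940 tested genes. Lung DT replicate 1 had the fewest genes detected, 14032, and it stands apart for several members. Mitochondrial genes took 3.11 to 4.40% of the counts of lung DT, 0.951 to 2.57% of lung PBS, 1.24 to 4.93% of LN DT and 1.05 to 1.68% of LN PBS. Ncr1, which encodes NKp46, was abundant in all 16 libraries, at 2457 to 4382 CPM in lung DT, 3770 to 5387 CPM in lung PBS, 5176 to 7917 CPM in LN DT and 5326 to 6216 CPM in LN PBS. Marker lists of other cells differed with tissue and treatment in summed CPM. The 8 macrophage and monocyte genes, led by Lyz2, summed to 146 to 4020 CPM in lung DT, 314 to 3560 in lung PBS, 111 to 255 in LN DT and 37.2 to 357 in LN PBS. The 8 B cell genes summed to 10.9 to 156 CPM in lung DT, 11.9 to 95.2 in lung PBS, 152 to 963 in LN DT and 75.3 to 122 in LN PBS. The 6 genes of group 1 innate lymphoid cells (ILC1), which also carry NKp46, parted the tissues without overlap, at 17.7 to 104 CPM in lung DT and 39.2 to 72.2 in lung PBS, against 538 to 1041 in LN DT and 425 to 757 in LN PBS. Of these genes 5 were tested, and Il7r and Cxcr6 were called lower in the lung with DT and with PBS. Of all tested genes, 2.78% were called lower with DT and 0.904% with PBS. Il7r (270 to 544 CPM) and Cxcr6 (68.6 to 482 CPM) made up most of the sum in the LN. Cd200r1 and Itga1 of the list overlapped between the tissues with both treatments, so the sum mainly follows Il7r and Cxcr6. The part of these lists in the results on the members was not tested.

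All 7 members were detected, at levels that spanned more than 2 orders of magnitude per length of exon. Expressed as mean CPM per kb of exon, Trbc1 was highest in each group, at 1268 ± 228 in lung DT, 1175 ± 271 in lung PBS, 2021 ± 1177 in LN DT and 1286 ± 173 in LN PBS (SD, n = 4 each). Trbc2 was next in each group, between 162 ± 28.8 in lung PBS and 319 ± 61.9 in LN DT. Trdc averaged 39.9 ± 25.6 CPM per kb in lung DT, 56.1 ± 12.3 in lung PBS, 86.0 ± 32.3 in LN DT and 86.2 ± 11.7 in LN PBS. Cd3d, at 81.3 ± 40.9 in LN DT and 69.2 ± 10.9 in LN PBS, and Cd3g, at 42.3 ± 13.1 in LN DT and 64.2 ± 6.60 in LN PBS, had lower means than Trdc in the LN. Libraries of Cd3d and Trdc overlapped in both LN groups, as did those of Cd3g and Cd3d in LN PBS, while those of Cd3g lay below those of Trdc in LN DT. In lung PBS the order changed, with Trac at 10.8 ± 1.41 above Cd3g at 7.98 ± 2.66 and Cd3d at 6.78 ± 2.07, 3 levels whose libraries overlapped. Cd3e was lowest in each group, at 0.759 ± 1.12 in lung DT, 0.303 ± 0.317 in lung PBS, 3.14 ± 1.68 in LN DT and 4.63 ± 2.32 in LN PBS. The alpha constant gene was thus far below the beta constant genes. The summed Trbc level per kb was 29.4 to 384 times that of Trac in lung DT, 91.8 to 199 times in lung PBS, 52.6 to 124 times in LN DT and 44.1 to 84.6 times in LN PBS.

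**Figure D1:**
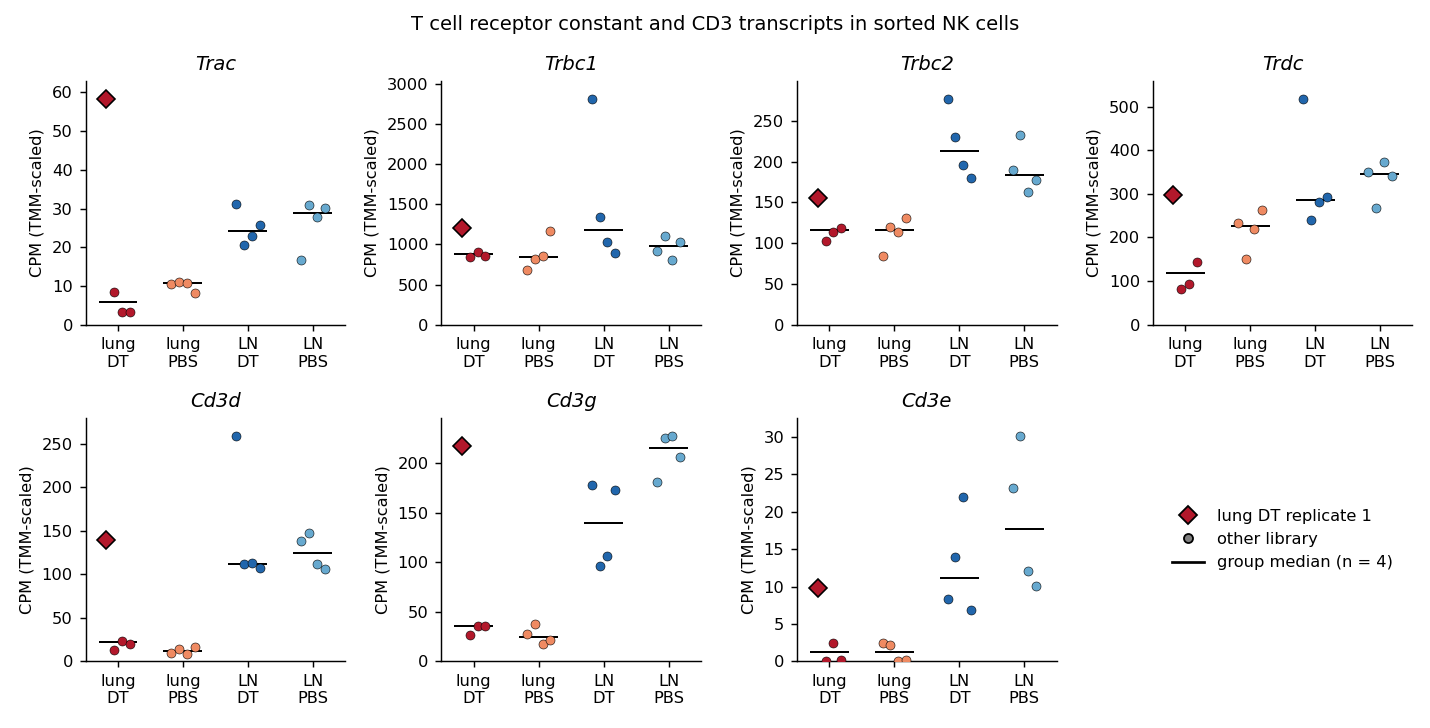
CPM (TMM-scaled) of each member in the 16 libraries, 1 panel per gene with its own axis from 0, where points are libraries, lines are group medians and the diamond is lung DT replicate 1. Cd3d and Cd3g lie between 8.58 and 37.5 CPM in 7 of 8 lung libraries and between 96.0 and 259 CPM in the LN libraries, and the diamond lies at 139 CPM for Cd3d and 218 CPM for Cd3g.

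In mice given PBS, NK cells from the lung had much less Cd3d and Cd3g RNA than NK cells from the LN, while Trbc1 overlapped between the tissues. In bulk samples such as these, fewer cells with a transcript and less RNA per cell cannot be told apart. All 7 members had a fold change below 0, with a median of -1.38 on the log2 scale against -0.01 over all tested genes, and 2 of 7 were called lower, where 0.904% of all tested genes were called lower. The libraries of the tissues did not overlap for 6 of the 7, all lower in the lung, which held for 9.91% of tested genes.

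Cd3d encodes the CD3 delta chain, which pairs with CD3 epsilon. It measured 9.83, 14.2, 8.58 and 16.6 CPM in lung PBS, against 138, 147, 111 and 107 CPM in LN PBS. Every lung PBS library was below every LN PBS library, and the log2 fold change was -3.36 ± 0.62 (SE; adjusted p = 0.00436). Cd3g encodes the CD3 gamma chain, which forms the other pair with CD3 epsilon. It measured 27.7, 37.5, 17.3 and 21.8 CPM in lung PBS, against 181, 225, 227 and 206 CPM in LN PBS. These libraries did not overlap either, with a log2 fold change of -3.01 ± 0.56 (adjusted p = 0.00437). The sum of the ILC1 genes given above was lower in the same lung libraries, also without overlap, though Cd200r1 and Itga1 among them overlapped. The part of the ILC1 genes in these differences was not tested. Cd3e encodes CD3 epsilon, the chain shared by both pairs. It had 2.48, 2.22, 0 and 0.248 CPM in lung PBS, from 25, 8, 0 and 2 reads, against 23.1, 30.2, 12.1 and 10.1 CPM in LN PBS. The groups did not overlap, but the fit gave -3.95 ± 1.28 and an adjusted p of 0.0977. An antisense gene, Gm48719, and Gm48720 overlap Cd3e, and reads of Smart-seq2 libraries carry no strand, so reads of these genes cannot be told apart there.

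The constant genes had smaller fold changes between the tissues, and edgeR called none. Trac, the alpha constant gene, had 10.5, 11.1, 10.8 and 8.19 CPM in lung PBS, against 16.6, 31.0, 27.8 and 30.1 CPM in LN PBS. It was lower in every lung PBS library, with a log2 fold change of -1.38 ± 0.69 that did not pass the threshold (adjusted p = 0.329). Trdc, the delta constant gene, had 234, 152, 219 and 264 CPM in lung PBS, against 350, 269, 374 and 340 CPM in LN PBS, a log2 fold change of -0.62 ± 0.36 (adjusted p = 0.420). The highest lung PBS library lay just under the lowest LN PBS library. Trbc2 had 84.4, 120, 113 and 131 CPM in lung PBS, against 190, 233, 163 and 178 CPM in LN PBS, with a log2 fold change of -0.77 ± 0.23 (adjusted p = 0.0697). Trbc1 had 683, 815, 859 and 1163 CPM in lung PBS, against 921, 1100, 804 and 1028 CPM in LN PBS, and its groups overlapped (-0.13 ± 0.31; adjusted p = 0.893). Of the summed Trbc1 and Trbc2 counts, Trbc1 held 87.2 to 89.9% in lung PBS and 82.5 to 85.2% in LN PBS, with no overlap. Without lung DT replicate 1, a library of neither group that enters this comparison through the shared spread, the gene filter and the scaling, Trac (adjusted p = 0.0386), Trbc2 (0.0399) and Cd3e (0.0369) were called lower too in edgeR, making 5 of 7 where 2.19% of tested genes were called lower. With all libraries DESeq2 called Trbc2, Cd3g and Cd3e lower, 3 of 7 where 2.87% of tested genes were, and gave Cd3d and Trac no adjusted p. Limma-voom called all members but Trbc1 lower, 6 of 7 where 7.57% of tested genes were. The libraries of these groups alone gave 5 where 4.93% were, and leaving out both DT libraries numbered 1 gave 5 where 3.2% were.

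In mice given DT, 1 member was called lower in lung NK cells than in LN NK cells, and this count depended on single libraries of both tissues. All 7 fold changes were below 0, with a median of -0.85 against -0.04 over all tested genes. Trbc2 was the only one called lower (-0.85 ± 0.23; adjusted p = 0.0320), where 2.78% of tested genes were called lower. Trbc2 was also the only member whose libraries did not overlap, lower in the lung, which held for 6.08% of tested genes. It had 155, 103, 114 and 118 CPM in lung DT, against 277, 230, 196 and 180 CPM in LN DT. The Trbc2 call was lost when any of 7 libraries was left out, among them 3 of lung DT, 3 of LN DT and lung PBS replicate 3, with adjusted p between 0.0510 and 0.0805. Same-numbered libraries of lung DT and LN DT deviated together (Pearson r 0.222 to 0.509), but differently numbered ones reached 0.250. With the replicate number as a block in edgeR, 3 of 7 were called lower where 2.73% of tested genes were. They were Trdc (-1.19, adjusted p = 0.0187), Trbc2 (-0.84, adjusted p = 0.0439) and Cd3d (-1.92, adjusted p = 0.0346). DESeq2 called 2, Trdc and Trbc2, where 5.06% of tested genes were called lower, and gave Cd3d (-1.52) and Trac (-0.37) no adjusted p. Limma-voom called 6, all but Trbc1, where 5.68% were. Total counts alone gave 2 where 3.27% were, leaving out both DT libraries numbered 1 gave 5 where 4.67% were, and the libraries of these groups alone gave 0 where 0.765% were.

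Lung DT replicate 1 stood apart from the other lung libraries at the CD3 genes, but not only there. Over the table without its lowest counts, its Pearson r with the other lung DT libraries was 0.754 to 0.778. Those libraries had 0.837 to 0.879 with each other, and lung DT replicate 1 had 0.828 with LN DT replicate 1. With the other LN DT libraries it had 0.742 to 0.754, with LN PBS 0.717 to 0.741 and with lung PBS 0.791 to 0.815. Cd3g had 218 CPM in lung DT replicate 1 and 27.0, 35.3 and 35.5 CPM in the other lung DT libraries, against 178, 96.0, 107 and 172 CPM in LN DT. Cd3d had 139 CPM in lung DT replicate 1 and 12.8, 23.4 and 20.2 CPM in the others, against 259, 112, 113 and 107 CPM in LN DT. For both genes this 1 lung library was inside the range of the 8 LN libraries of both treatments, and the other 3 were close to lung PBS. Trac was higher in lung DT replicate 1, at 58.2 CPM, than in any other library, with 8.52, 3.32 and 3.27 CPM in the other lung DT libraries, against 31.2, 20.6, 22.9 and 25.8 CPM in LN DT. Cd3e had 9.76 CPM in lung DT replicate 1 and 0, 2.49 and 0.131 CPM in the others, against 8.40, 14, 22 and 6.82 CPM in LN DT. Trdc had 297 CPM in lung DT replicate 1 and 81.9, 94.3 and 144 CPM in the others, against 517, 240, 281 and 292 CPM in LN DT. The library thus held 6.67 times the mean of the other 3 for Cd3g, 7.41 times for Cd3d and 11.6 times for Trac, but 1.39 times for Trbc1 and for Trbc2.

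Without lung DT replicate 1, Cd3d, Cd3g, Trac, Trdc and Trbc2 were lower in lung NK cells than in LN NK cells of mice given DT. That library was singled out by its high values at these same members. The p-values without it therefore depend on that choice and are no independent support. Cd3d (-2.94 ± 0.38; adjusted p = 0.000106), Cd3g (-2.06 ± 0.31; 0.000593), Trac (-2.28 ± 0.43; 0.00334), Trdc (-1.60 ± 0.31; 0.00377) and Trbc2 (-0.95 ± 0.23; 0.0151) were called lower in edgeR, 5 of 7 where 4.86% of tested genes were called lower. Cd3e was at -3.84 ± 1.21 (adjusted p = 0.0508) and Trbc1 at -0.77 ± 0.33 (0.146). The 3 remaining lung DT libraries averaged 18.8 ± 5.45 CPM of Cd3d, 32.6 ± 4.82 CPM of Cd3g and 5.04 ± 3.01 CPM of Trac (SD, n = 3).

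**Figure D2:**
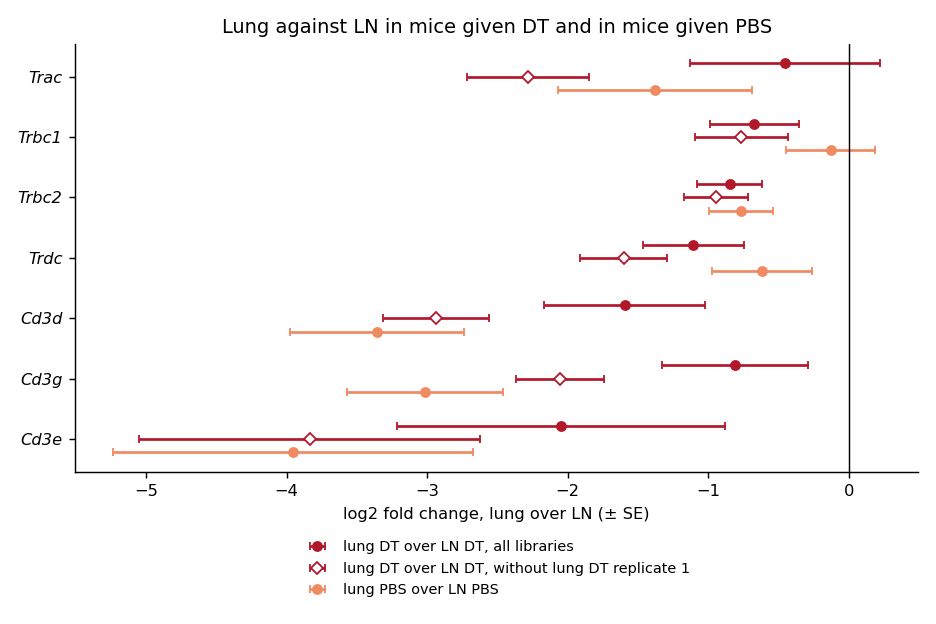
Log2 fold change of lung over LN for each member (horizontal axis, points with SE), in mice given DT with all libraries (filled red), in mice given DT without lung DT replicate 1 (open diamonds) and in mice given PBS (orange). Without that library Cd3d moves to -2.94 and Cd3g to -2.06 in mice given DT, where they are at -3.36 and -3.01 in mice given PBS, while Trbc2 stays between -0.77 and -0.95.

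At 3 genes that part the tissues the same library was the highest of lung DT but below every LN library. Il7r, the interleukin 7 receptor alpha chain, had 30.8 CPM in lung DT replicate 1 and 12.9 to 15.7 CPM in the other lung DT libraries, against 270 to 501 CPM in LN DT. Tcf7, a transcription factor of early T and NK cells, had 35.6 CPM in it and 6.81 to 21 CPM in the others, against 67.7 to 160 CPM in LN DT. Cxcr6, a chemokine receptor of tissue-resident lymphocytes, had 24.0 CPM in it and 0.125 to 9.04 CPM in the others, against 220 to 482 CPM in LN DT. All 3 genes were called lower in lung than LN with DT (Il7r -4.39, Tcf7 -2.23 and Cxcr6 -5.04 on the log2 scale). The 14 alpha beta T cell markers summed to 416 CPM in lung DT replicate 1, the highest of the lung libraries. Cd28, Camk4 (34.9 CPM, against 21.4 to 31.6 CPM) and Bcl11b were at their highest of lung DT there, as was Izumo1r, an NKT cell marker. Zbtb16, another NKT cell marker, was at 0 CPM there, against 14.1 to 31.2 CPM in the other lung DT libraries. The 5 NKT cell genes summed to 53.2 CPM in lung DT replicate 1, inside the lung DT range of 51.7 to 71.1 CPM. Ubash3a (13.6 CPM) and Cd5 (3.30 CPM) lay inside the range of the other lung DT libraries. Cd4, Cd8b1, Themis and Trat1 were at 0 counts in it, Cd6 at 0.430 CPM and Cd8a at 1.72 CPM, but Cd8b1 and Trat1 were at 0 in all 4 lung DT libraries and Themis in 3 of them. A count of 0 there allows up to 0.430 CPM, at 3 counts and for counting error only. Cd28, a costimulatory receptor, was at 333 CPM in that library, against 77.4 to 148 CPM in the other lung DT libraries, and Bcl11b, a T lineage transcription factor, at 21.1 CPM, against 0 to 6.65 CPM.

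**Figure D3:**
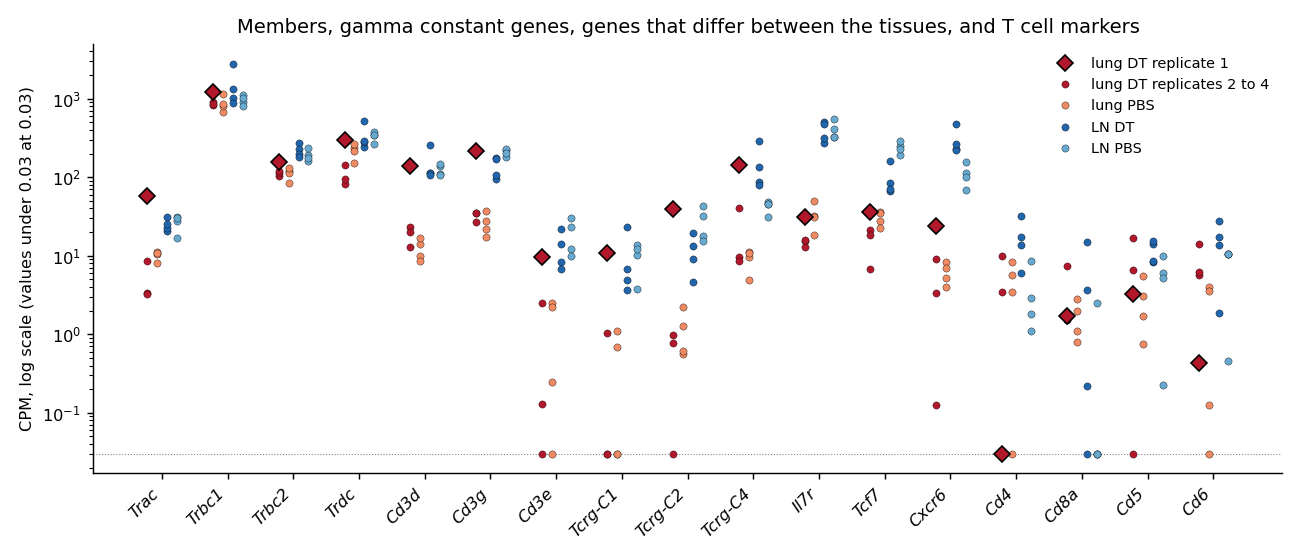
CPM on a log scale (values under 0.03 drawn at 0.03) of the members, the gamma constant genes, 3 genes that differ between the tissues and 4 T cell markers, with lung DT replicate 1 as a diamond. The diamond is among the LN points for Cd3d, Cd3g and the Tcrg-C genes, above all points for Trac, among the lung points for Il7r and Tcf7, between the other lung points and the LN points for Cxcr6, and at 0 for Cd4.

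No member was called between DT and PBS in either tissue by edgeR. In the lung 0 of 7 were called, where 0.108% of tested genes were called in either direction. Cd3d (1.99 ± 0.59; adjusted p = 0.166) and Cd3g (1.60 ± 0.53; 0.200) had unadjusted p under 0.05, 2 of 7, and DESeq2 called 1, Cd3g, higher (1.68; adjusted p = 0.0488), as it did 1.97% of tested genes, while limma-voom called 0. DESeq2 gave Cd3d (2.07 ± 0.58) and Trac no adjusted p. In edgeR without lung DT replicate 1, Cd3d was at 0.57 (adjusted p = 0.372) and Cd3g at 0.28 (0.621), and Trac turned to -1.06 (0.182) where it had been 0.85 with all libraries (0.580). Trdc was at -0.49 ± 0.36 (0.536), and without that library at -1.07 (0.103). It was called lower, at -1.09 (0.0278), when both DT libraries numbered 1 were left out, as were 2.12% of tested genes. The libraries of lung DT and lung PBS overlapped for all 7 members, where 3.35% of tested genes were higher and 4.53% lower without overlap.

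In the LN 0 of 7 members were called by edgeR, where 0.0646% of tested genes were called in either direction, and 0 had an unadjusted p under 0.05. Cd3g was the 1 member whose libraries did not overlap, at 178, 96.0, 107 and 172 CPM in LN DT, against 181, 225, 227 and 206 CPM in LN PBS, and 3.42% of tested genes did so in the lower direction. Its log2 fold change was -0.60 ± 0.51 (adjusted p = 0.684), limma-voom called it lower (-0.98; adjusted p = 0.00153), as it did 11.9% of tested genes, and DESeq2 called 0 members. Cd3d and Trac had no adjusted p from DESeq2. LN DT replicate 1 held 2807 CPM of Trbc1, 517 CPM of Trdc and 259 CPM of Cd3d, where the other 15 libraries had at most 1334, 374 and 147 CPM. Trbc1 was at 0.65 ± 0.32 on the log2 scale (adjusted p = 0.431), and at 0.11 without that library. The effect of DT in the LN minus that in the lung was not called for any member in edgeR, where 0.00717% of tested genes were called in either direction. Cd3g (-2.20 ± 0.74, adjusted p = 0.886) and Cd3d (-1.76 ± 0.80) had unadjusted p under 0.05 there in edgeR. DESeq2 and limma-voom called 0, with no adjusted p from DESeq2 for Cd3d and Trac.

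Segments of the TCR loci were counted to show which parts of the receptor genes the constant transcripts came with. V segments of the 4 loci, which bind antigen in a rearranged chain, summed to 204, 59.0, 50.0 and 62.9 CPM in lung DT and 52.7, 43.6, 48.8 and 82.5 CPM in lung PBS, against 442, 161, 203 and 128 CPM in LN DT and 154, 127, 114 and 129 CPM in LN PBS. In each group Trdv held more of these counts than Trav, Trbv and Trgv together, with 2230, 1556, 5233 and 2749 in the same order of groups. The V sums of the PBS groups did not overlap. The exact two-sided permutation test gave p = 0.0286 for lung PBS against LN PBS, the smallest that 4 against 4 libraries allow, and 0.143 after adjustment over 20 segment tests. None of the 20 passed the threshold after adjustment. A measure at this smallest p could pass only if many of the 20 tests reached it together. Not passing therefore does not tell whether a single measure differed.

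At the beta locus, V counts were few beside C counts. They made up 0.0802 to 0.942% of V plus C counts in lung DT, 0.0745 to 0.678% in lung PBS, 0.520 to 2.20% in LN DT and 1.20 to 2.44% in LN PBS. Lung PBS lay below LN PBS without overlap (exact permutation p = 0.0286; adjusted p = 0.143). The J segments of the first cluster, Trbj1, which lies with Trbd1 just before Trbc1, held 3424 counts in lung DT, 3688 in lung PBS, 10288 in LN DT and 4907 in LN PBS. Those of the second cluster, Trbj2, before Trbc2, held 50, 42, 117 and 93 counts in the same order of groups. Trbd1 held 99.2% of counts on the D segments. On the D and J segments the counts were thus mostly on the first cluster, while the split between the constant genes is uncertain, as given above. At the alpha locus, by contrast, V counts made up 25.4 to 52.8% of V plus C counts in lung DT, 19.8 to 37.1% in lung PBS, 21.2 to 67.1% in LN DT and 32.8 to 53.1% in LN PBS, on the low Trac counts given above. Trav22 alone held 37.7% of the Trav counts. Short segments collect fewer reads than constant genes, so these shares are compared between libraries and not read as shares of molecules.

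At the delta locus the V share was higher in the DT libraries of both tissues without overlap, in tests that did not pass after adjustment. Trdv counts made up 34.0, 38.8, 30.9 and 28.8% of Trdv plus Trdc counts in lung DT, against 16.4, 18.1, 17.2 and 22% in lung PBS. They made up 40.8, 33.3, 35.3 and 26.8% in LN DT, against 19.2, 20.6, 16.2 and 21% in LN PBS. Every DT library was above every PBS library of its tissue, by 14.7 percentage points on average in the lung and 14.8 in the LN. Both exact permutation tests gave p = 0.0286, the smallest that 4 against 4 libraries allow, and an adjusted p of 0.143. Leaving out 1 library at a time left differences of 12.8 to 16.1 points in the lung and 12.5 to 17.2 points in the LN. Trdv4 held 50.7% and Trdv2-2 47.5% of Trdv counts, 2 segments singled out after their values were seen. In edgeR Trdv4 was at 0.80 ± 0.57 on the log2 scale in lung DT over lung PBS (adjusted p = 0.530) and at 2.16 ± 0.59 in LN DT over LN PBS (0.177), and Trdv2-2 at 0.35 ± 0.34 (0.650) and 0.56 ± 0.33 (0.543). The mitochondrial share was also higher in lung DT than in lung PBS without overlap, and at 4.93, 4.18, 4.01 and 1.24% in LN DT against 1.05 to 1.68% in LN PBS. LN DT replicate 4, at 1.24%, also had the lowest delta V share of LN DT, and the part of the mitochondrial share in these V shares was not tested. Gm43434 and Trdv5 overlap Trdc on the other strand, so reads there cannot be told apart by strand.

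**Figure D4:**
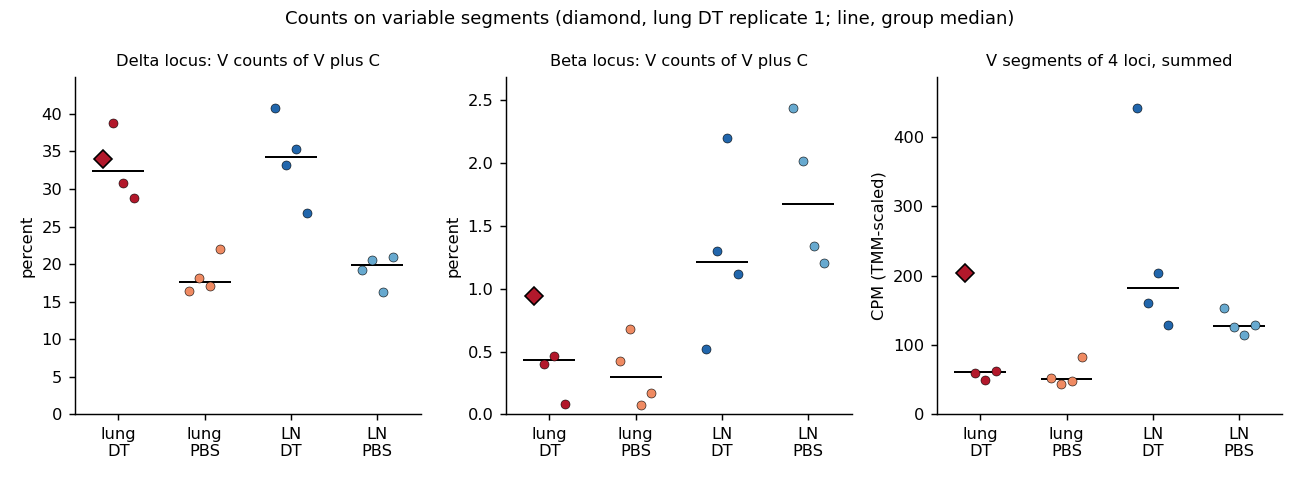
Share of V counts in V plus C counts at the delta and beta loci (percent) and summed CPM of V segments of 4 loci, per library, with lines at group medians and lung DT replicate 1 as a diamond. The delta V share is 26.8 to 40.8% in the DT libraries of both tissues and 16.2 to 22% in the PBS libraries, and the beta V share is under 2.5% in all 16 libraries.

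The gamma constant genes Tcrg-C1, Tcrg-C2 and Tcrg-C4 were counted among the gamma delta T cell markers. They had lower values in lung PBS than in LN PBS libraries, as Cd3d and Cd3g had. Within the LN, only Tcrg-C4 of these genes parted DT from PBS without overlap. Tcrg-C4 had 143, 9.64, 8.58 and 40.2 CPM in lung DT and 11.2, 9.71, 4.96 and 10.9 CPM in lung PBS, against 293, 87.7, 78.8 and 137 CPM in LN DT and 48.3, 30.8, 45.6 and 46.2 CPM in LN PBS. Lung DT replicate 1 was again in the LN range. Every LN DT library of Tcrg-C4 was above every LN PBS library, whereas for Cd3g every LN DT library was below every LN PBS library. Tcrg-C4 (-2.21; adjusted p = 0.0909), Tcrg-C2 (-4.48; 0.0650) and Tcrg-C1 (-4.56; 0.116) did not pass edgeR's threshold in lung PBS over LN PBS. Of the 10 genes of the gamma delta list, 5 were tested and 1, Cd163l1, was called lower in the lung with both DT and PBS, where 2.78% of all tested genes were called lower with DT and 0.904% with PBS. Cd163l1, a scavenger receptor of gamma delta T cells, had 0 CPM in lung DT and 0 to 0.278 CPM in lung PBS, against 4.63 to 12.8 CPM in LN DT and 4.00 to 14.1 CPM in LN PBS. The 10 genes summed to 13.4 to 195 CPM in lung DT, 5.68 to 15.5 in lung PBS, 124 to 342 in LN DT and 71.8 to 120 in LN PBS.

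Most alpha beta T cell markers were low beside Trbc1, Trbc2 and Trdc, but not beside the other members. Cd28 had 82.1 to 127 CPM in lung PBS, above Cd3d, Cd3g, Trac and Cd3e in each of these libraries, and in LN DT replicate 3 Cd4 (31.9 CPM) and Cd6 (27.7 CPM) were above Trac (22.9 CPM). Cd4 had at most 9.89 CPM in lung DT and 8.33 in lung PBS, against 31.9 in LN DT and 8.55 in LN PBS. Cd8a had at most 7.34 CPM in lung DT and 2.78 in lung PBS, against 15 in LN DT and 2.48 in LN PBS. Cd8b1 was at 0 in all 8 lung libraries and at most 11.3 CPM in LN DT and 2.35 in LN PBS. Cd5 had at most 16.6 CPM and Cd6 at most 27.7 CPM in the 16 libraries. None of Cd4, Cd8a, Cd5 and Cd6 was called in any comparison, and Cd8b1 was not tested. The 14 genes of the list, led by Cd28 and Ubash3a, summed to 175 to 416 CPM in lung DT, 161 to 224 in lung PBS, 298 to 483 in LN DT and 244 to 320 in LN PBS. Of the 12 tested, 2, Trat1 and Ubash3a, were called lower in lung DT than in LN DT, where 2.78% of all tested genes were, and none was called with PBS. Rag1 had at most 1 read in any library. The 4 genes of recombination and the pre-TCR summed to at most 5.29 CPM, and none was tested. The 5 NKT cell genes, led by Cd1d1, summed to 51.7 to 71.1 CPM in lung DT, 65.5 to 110 in lung PBS, 59.0 to 83.3 in LN DT and 63.9 to 143 in LN PBS, with none called. The part of carried-over T cells in the members' levels was not tested.

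Among the chains and signalling genes that NK cells share with T cells, Cd247 was not called between the tissues and had its highest mean in lung PBS, while the signalling gene Tespa1 was called lower in the lung. Cd247 had 155 to 390 CPM in lung DT and 363 to 475 CPM in lung PBS, against 169 to 340 CPM in LN DT and 268 to 308 CPM in LN PBS. It was thus above LN PBS in every lung PBS library, at 0.55 on the log2 scale (adjusted p = 0.340), where Cd3g was below it in every one. Per kb of exon, Cd3g was 0.148 to 2.29 times Cd247 in lung DT and 0.0596 to 0.162 times in lung PBS, against 0.781 to 1.71 times in LN DT and 1.02 to 1.37 times in LN PBS. Fcer1g, the Fc receptor gamma chain that pairs with Cd247, was at 0.49 (adjusted p = 0.388) in lung PBS over LN PBS. None of the 4 adaptor genes was called in any comparison, and their median in lung PBS over LN PBS was 0.30 against -0.01 over all tested genes. Of 23 genes of proximal TCR signalling, 1 was called lower in lung PBS than in LN PBS, where 0.904% of all tested genes were, Tespa1, a factor of TCR signalling in thymocytes (-1.34; adjusted p = 0.0391), and the median was 0.05. With DT, Tespa1 (-1.85; 0.00498) and Lat (-0.68; 0.0467), the adaptor that ZAP70 phosphorylates, were called lower, 2 of 23 where 2.78% of all tested genes were. Lck, at 0.03 (0.977) in lung PBS over LN PBS, and Zap70, at -0.68 (0.510), were not called. The Zap70 libraries did not overlap with PBS, at 103 to 156 CPM in lung PBS against 167 to 205 CPM in LN PBS. Those of Ptpn6, a phosphatase of both lineages named here after its values were seen, did not either, at 270 to 370 CPM in lung PBS against 463 to 681 CPM in LN PBS. Of all tested genes, 9.91% were lower in lung PBS than in LN PBS without overlap, so such a separation is not particular to these genes. Of 12 transcription factors shared by T and NK lineages, Tcf7 was called lower in the lung with DT (-2.23; 0.00313) and with PBS (-2.99; 0.000365), and Runx1 was called higher (1.26; 0.0114 and 1.30; 0.0130).

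Within groups the correlation between the CD3 members depended on 1 library. With each group's mean taken off log2(CPM + 1), Cd3d and Cd3g had Pearson's r of 0.88 over 16 libraries and 0.49 without lung DT replicate 1. Cd3e and Cd3d had 0.64 and 0.18, and Cd3e and Cd3g 0.64 and 0.16. Trac and Cd3g had 0.85 and 0.17, while Trbc1 and Trbc2, the neighbours with a nearly identical first exon, had 0.83 and 0.82. These values share libraries and depth and are given as description. The genes most like each member over 16 libraries were Nol8, BC147527 and Akip1 for Trac (r 0.97 to 0.94), Idnk, Gm44829 and Tecpr1 for Trbc1 (0.97 to 0.95), and Pcf11, AI662270 and Srp14 for Trbc2 (0.94 to 0.91). For Trdc they were Klrc1, Klrc2 and Cops2 (0.98 to 0.97), for Cd3d Insl6, Rpp30 and Cbx1 (0.96 to 0.95), for Cd3g Ran, Dguok and Wbp5 (0.96 to 0.94) and for Cd3e Arl5c, Ggcx and Klk8 (0.84 to 0.82). Without lung DT replicate 1, 2 of 3 remained for Trbc1 (Tecpr1 and Idnk) and for Cd3d (Insl6 and Rpp30), 1 for Trbc2 (Pcf11), and none for the other 4 members.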

How the data were processed

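The authors deposited raw read counts per Ensembl gene for 16 Smart-seq2 libraries of sorted NK cells. HISAT2, HTSeq and the build GRCm38 are named in the submitters' processing notes. Versions, strand setting and the treatment of multi-mapping reads are not given there. Groups follow the labels. Counts were filtered with filterByExpr (minimum count 10, minimum total 15), scaled by TMM and tested by quasi-likelihood (robust) in edgeR 4.0.16 under R 4.3.3. A single model held a mean for each of the 4 groups, leaving 12 residual degrees of freedom, and its common dispersion corresponds to a biological coefficient of variation of 0.621. The design implies 5 contrasts. P-values were adjusted by Benjamini-Hochberg over 13940 genes. Segment sums were tested with two-sided exact permutations of libraries (SciPy 1.17.1). DESeq2 1.42.0 and limma-voom (limma 3.58.1) were alternatives, beside other scalings, filters, covariates and left-out libraries; the fit was tested on simulated data.

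The labels do not say that replicate numbers mark shared mice. Deviations of same-numbered libraries correlated over all 4 pairs only between lung DT and LN DT (0.222 to 0.509), so the blocked values of the pairing are given beside that comparison. Differently numbered libraries of these 2 groups had a median of -0.0920 but reached 0.250. Named genes are the 7 members, 15 genes always named, the called genes of 15 lists (126 genes) or else those of smallest p or highest mean CPM, and the 3 genes most like each member among those with a mean of at least 10 CPM. Cd200r1, Itga1 and Tnfsf10 are named beside the called ILC1 genes. The members and lists were chosen with earlier results of these data known. Gene positions and lengths are from GENCODE M21, promoters from RefSeq.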

Additional observations from a re-analysis of the deposited data

Results flagged for a closer look

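In 48 groups of 4 libraries (7 members and 5 segment measures), 7 had 1 library far from the other 3, with a gap, relative to the group's range, above Dixon's 95% critical value; chance gives about 1 in 20 groups. Lung DT replicate 1 was far above the other lung DT libraries in 5 of the 7. It held 58.2 CPM of Trac, against 3.27 to 8.52 CPM in the others, and 1203 CPM of Trbc1, against 837 to 899 CPM. It held 139 CPM of Cd3d, against 12.8 to 23.4 CPM, and 218 CPM of Cd3g, against 27.0 to 35.5 CPM. Its V segments summed to 204 CPM, against 50.0 to 62.9 CPM. LN DT replicate 1 held 259 CPM of Cd3d, against 107 to 113 CPM in the other LN DT libraries. The alpha V share was 37.1% in lung PBS replicate 4, against 19.8 to 22.1% in the other lung PBS libraries.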

How the results depend on the processing

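Cd3g was called lower in lung PBS than in LN PBS under all 27 alternatives (log2 fold change -3.20 to -2.83), and Cd3d under the 26 that gave an adjusted p (-3.54 to -3.19). DESeq2 gave no adjusted p for Cd3d or Trac in any comparison. Counts of members called moved more. In lung PBS against LN PBS, where 2 were called lower, DESeq2 called 3, limma-voom 6, the libraries of these 2 groups alone 5, and the data without both DT libraries numbered 1 also 5; leaving out 1 library gave 2 to 5. In lung DT against LN DT, where 1 was called lower, total counts alone gave 2, no gene filter 0, the replicate block 3, DESeq2 2, limma-voom 6, these 2 groups alone 0 and the data without both DT libraries numbered 1 gave 5; leaving out 1 library gave 0 to 5, with 5 only without lung DT replicate 1. For DT against PBS, limma-voom called 1 lower in the LN, DESeq2 1 higher in the lung, and the data without both DT libraries numbered 1 gave 1 lower in the lung. The causes of these moves were not tested. The replicate block changed no call of a member in the other 4 comparisons. Whether the numbers pair libraries there is not given in the labels. Outside the 2 DT groups, median correlations of same-numbered libraries were -0.154 to 0.0594. No segment measure moved by more than its spread between libraries, a spread that a single far library widens. Even so, leaving out 1 library took the V sum of DT over PBS from 0.72 to as low as 0.00914 in the lung (log2). In the LN it went from 0.83 to as low as 0.326. The J sum of DT over PBS in the lung, at -0.0103, ranged from -0.478 to 0.454. The means of lung DT without replicate 1, the pairwise correlations and the likeness without it were added after the data were seen. Depth limits Cd3e most, with 0 to 25 reads in 7 of 8 lung libraries.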
